A study of Mus musculus with 6 samples.

Results

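The genes of glycolysis and of the hypoxia-inducible factor (HIF) pathway were compared between bone marrow-derived macrophages of Lamtor5 knockdown and WT mice. The 32 members, of 55401 genes in the deposited table, were the rows whose gene name stood in a list of glucose transporters, glycolytic enzymes, lactate and pyruvate genes, HIF alpha subunits and their oxygen-sensing regulators. They took up 33 rows, because Aldoa was listed under 2 identifiers. The identifier with the most counts was used, and the second, ENSMUSG00000114515, held 0.163 to 0.733 FPKM (fragments per kilobase of transcript, scaled to library depth). Both groups, 3 knockdown and 3 WT libraries, were bone marrow cells induced with M-CSF, the growth factor that drives macrophage differentiation. Knockdown is the genotype label, whereas the series text names the mice HBXIPΔLysM; HBXIP is another name for Lamtor5, and LysM is the lysozyme gene Lyz2, whose promoter is widely used to drive Cre in myeloid cells. That promoter is active in myeloid cells at large, and the extent of recombination in each culture was not analysed here. Lamtor5 is a subunit of Ragulator, the lysosomal complex through which amino acids activate mTORC1.

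Glycolysis splits glucose into pyruvate in the cytosol. Its preparatory steps, from hexokinase to triose phosphate isomerase, spend ATP, and its pay-off steps, from Gapdh to pyruvate kinase, return it; lactate dehydrogenase then regenerates the NAD that Gapdh needs. HIF alpha subunits are hydroxylated by the Egln prolyl hydroxylases when oxygen is present, bound by Vhl and degraded, and otherwise switch on glucose transporter and glycolytic genes. In macrophages this programme is known for its rise with inflammatory activation and mTORC1 signalling.

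Sequencing gave 26.0 to 28.0 M read pairs per library, from which the authors estimated 75.8 to 83.2 M counts. Lamtor5 (ENSMUSG00000087260, chr3:107278858-107284082 in GRCm38) was at 25.6, 27.1 and 24.8 FPKM in knockdown libraries 1 to 3 and at 55.9, 54.5 and 56.2 in WT libraries 1 to 3, a log2 fold change of -1.06 (SE 0.0782, edgeR adjusted p = 0.00963). Every series of values below keeps that order of libraries. Knockdown libraries correlated with each other at 0.961 to 0.967 and WT libraries at 0.968 to 0.974, against 0.935 to 0.959 for a knockdown with a WT library. Knockdown library 3 stood apart in Lyz2, at 73.6 FPKM against 11360 and 10650 in the other knockdown libraries and 22450 to 29380 in WT. Lyz2 is a macrophage marker but also the gene behind LysM in the mouse name, so its level is not a plain measure of macrophages here. The labels give all knockdown libraries the same genotype, and whether they differ at Lyz2 was not tested. Knockdown library 3 was also the lowest of its group for 20 of the 32 members (62.5%), against 38.9% of all tested genes. Of 8 macrophage markers, 1 was called higher (Cd68) and 5 lower in knockdown, with summed levels of 1982 to 13200 FPKM against 24230 to 31370 in WT, sums in which Lyz2 weighs most. All 8 proliferation markers were called lower, and their summed level was 19.1 to 41.5 FPKM in knockdown and 106 to 234 in WT. Other cells' markers were low: mast cell, basophil and eosinophil genes summed to 6.002 to 14.5 FPKM against 1.88 to 3.83 (2 of 6 called higher), erythroid genes to 1.34 to 7.87 against 0.314 to 0.676 (1 of 3 tested higher), and T, NK and B cell genes to 1.54 to 5.39 against 5.51 to 8.26. Neutrophil genes summed to 78.9 to 126 FPKM against 101 to 154, with 1 of 8 higher and 1 lower, and neither dendritic cell nor fibroblast markers reached 8 FPKM in sum. The part of these markers in the results below was not tested, and in bulk RNA fewer cells of a type and less RNA per cell cannot be told apart. Lyz2 itself was not called. Whether the LysM allele changed Lyz2 was not tested, so the macrophage sum cannot be read as a loss of macrophages.

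All 32 members passed the filter on low counts. By edgeR's quasi-likelihood test, 3 of the 32 (9.38%) were higher in knockdown, against 4.87% of all 18164 genes tested: the enolase isozyme Eno2, the HIF alpha subunit Epas1 and the prolyl hydroxylase Egln3. A further 4 (12.5%) were lower, against 6.46% of all genes: the glucose transporters Slc2a1 and Slc2a6, the phosphofructokinase isozyme Pfkp, and Hif1a. Together 7 members (21.9%) passed the threshold of an adjusted p of 0.05, against 11.3% of all genes. The other 25 did not pass it, although 14 of the 32 (43.8%) had an unadjusted p under 0.05, against 30.2% of all genes. These shares were not matched for expression level. A mean of at least 5 FPKM in a group was reached by 31 of the 32 members, whereas only 11516 genes had a mean of at least 1 FPKM. Of those 11516, limma on log2(FPKM + 1) called 1974. The FPKM of the groups did not overlap for 13 members (40.6%, against 37.6% of all genes), a share close to the background. Knockdown was higher in 4 of these and lower in 9, but the same split over all genes was not counted. FPKM ran slightly lower in knockdown. Over the 11516 genes, the median log2 fold change in limma on log2(FPKM + 1) was -0.05. The members' log2 fold changes ran from -0.65 to 1.89 with a median of 0.08, against a median of 0.02 over all genes, and were positive for 18 and negative for 14. With near-identical copies added to their genes the split was 17 to 15, because Gapdh turned, and Tpi1, at 0.00, was negative in some other settings. Only Eno2 and Epas1 were called with a fold change of at least 2, both upward.

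**Figure D1:**
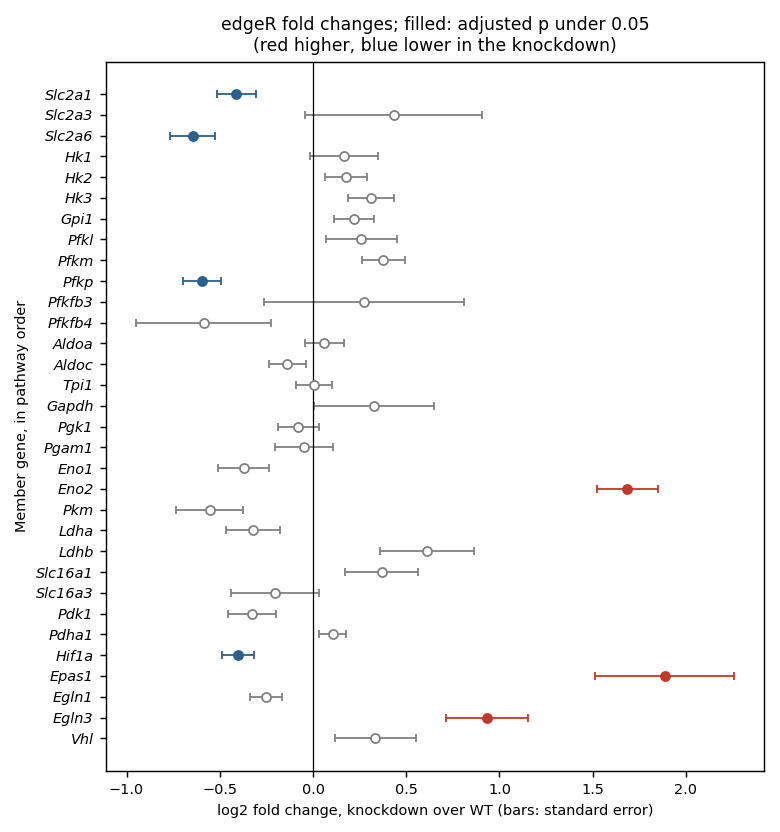
Log2 fold change of knockdown over WT (horizontal axis) for each of the 32 members, with bars of 1 standard error from edgeR and colours for the call. The 3 members called higher lie from 0.93 to 1.89, the 4 called lower from -0.65 to -0.40, and the other 25 from -0.59 (Pfkfb4) to 0.61 (Ldhb), so that uncalled Pfkfb4 and Pkm lie in the range of those called lower.

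The number of calls depended on single libraries. Without knockdown library 1 there was 1 member higher and 0 lower, without knockdown library 2 or knockdown library 3 there were 2 and 1, without WT library 1 there were 2 and 3, and without WT library 3 there was 1 each way. Without WT library 2 no gene of the whole table passed in edgeR (smallest adjusted p = 0.0616, with 4065 genes and 11 members at an unadjusted p under 0.05). Over the 16 settings tried, these leave-outs included, Eno2 passed in 15, Slc2a6 in 11, Pfkp and Epas1 in 10 each, Hif1a and Egln3 in 8 each and Slc2a1 in 7. Each of the 7 kept its direction in all 16.

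HIF binds DNA at short cores, ACGTG or GCGTG, so the promoters of 5 called members are shown, to let the presence or absence of these letters be seen beside the calls. The RefSeq promoter of the called member Hif1a is not printed, since it lies inside the gene as the deposited table draws it, but it is counted below. They come from RefSeq (GRCm38.p6), which had promoters for 30 of the 32 members (not Slc2a3 or Epas1). The window runs 250 bases before the start site, shortened where it enters the gene by over 20 bases, and is written 5′ to 3′ on the gene's strand, with each core in capitals (on the other strand they read CACGT and CACGC).
Slc2a1, chr4:119108495-119108730, plus strand: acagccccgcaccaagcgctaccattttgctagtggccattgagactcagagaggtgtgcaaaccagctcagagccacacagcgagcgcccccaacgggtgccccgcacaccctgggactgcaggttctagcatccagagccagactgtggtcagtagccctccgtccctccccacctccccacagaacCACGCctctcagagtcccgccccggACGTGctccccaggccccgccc
Slc2a6, chr2:27027999-27028248, minus strand: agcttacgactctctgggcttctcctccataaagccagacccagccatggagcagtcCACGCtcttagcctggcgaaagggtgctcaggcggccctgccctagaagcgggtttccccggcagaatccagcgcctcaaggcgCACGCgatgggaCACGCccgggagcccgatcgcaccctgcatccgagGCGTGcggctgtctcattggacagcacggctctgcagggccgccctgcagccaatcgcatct
Pfkp, chr13:6648772-6649021, minus strand: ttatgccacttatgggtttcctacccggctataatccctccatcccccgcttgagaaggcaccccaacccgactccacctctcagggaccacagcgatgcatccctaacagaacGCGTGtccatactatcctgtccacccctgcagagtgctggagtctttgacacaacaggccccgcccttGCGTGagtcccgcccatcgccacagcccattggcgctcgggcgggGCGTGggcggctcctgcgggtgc
Eno2, chr6:124769674-124769923, minus strand: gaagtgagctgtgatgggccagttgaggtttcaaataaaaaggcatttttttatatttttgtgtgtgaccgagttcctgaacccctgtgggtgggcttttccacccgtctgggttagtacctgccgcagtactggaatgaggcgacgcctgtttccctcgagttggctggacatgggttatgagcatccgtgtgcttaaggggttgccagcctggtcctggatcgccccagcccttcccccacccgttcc
Egln3, chr12:54203875-54204124, minus strand: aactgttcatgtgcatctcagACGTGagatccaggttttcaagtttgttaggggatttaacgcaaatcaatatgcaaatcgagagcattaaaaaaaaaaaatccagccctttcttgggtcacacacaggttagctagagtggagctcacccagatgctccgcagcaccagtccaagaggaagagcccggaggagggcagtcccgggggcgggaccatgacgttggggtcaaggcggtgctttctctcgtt
The Slc2a1 window held 1 core of each kind, the Slc2a6 window 4 GCGTG cores, the Pfkp window 3 GCGTG cores and the Egln3 window 1 ACGTG core, 229 bases before the start. No core stood in the Eno2 window, which says only that these letters are absent from it. Over windows that add 50 bases after the start, ACGTG stood in 21 of 43 member promoters (48.8%) and in 19.6% of 32851 mouse promoters. GCGTG stood in 53.5% of member promoters and in 32.4% of all. ACGTG also lies within the E-box CACGTG, which 11.6% of member promoters and 7.15% of all held. Among the 6 promoters of called members, 3 held ACGTG and 3 held GCGTG, and only that of Eno2 held neither. The 43 member promoters belong to 30 genes, so some genes count more than once. Members were chosen as glycolysis and HIF pathway genes, and the shares were not matched for base content. Their difference from all promoters is therefore no result about the knockdown. These matches describe the letters and do not show that a factor binds there.

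Both glucose transporters that dominated in WT fell. Slc2a6 (ENSMUSG00000036067, chr2:27021363-27027998), a transporter of lysosomal membranes that macrophages express, was at 28.8, 33.9 and 24.0 FPKM in knockdown and at 48.5, 45.2 and 46.3 in WT. Every knockdown library was below every WT library, with means of 28.9 ± 4.96 and 46.7 ± 1.71 FPKM (SD, n = 3), a log2 fold change of -0.65 (SE 0.119, edgeR adjusted p = 0.0222); that call was lost without knockdown library 1, WT library 2 or WT library 3 (adjusted p of 0.0629 to 0.0824). Slc2a1 (ENSMUSG00000028645, chr4:119108711-119137983), the basal plasma membrane transporter, was at 18.0, 16.9 and 14.9 FPKM in knockdown and at 24.3, 21.4 and 22.8 in WT. The groups did not overlap (16.6 ± 1.56 against 22.8 ± 1.43 FPKM, SD, n = 3), but the log2 fold change of -0.41 (SE 0.104) stood right at the threshold (edgeR adjusted p = 0.04997), and leaving out any single library took it past 0.05, to 0.0695 to 0.132. Slc2a3, a high-affinity transporter, did not pass (log2 fold change 0.43, SE 0.476); it was at 6.66, 7.19 and 3.996 FPKM in knockdown and at 1.61, 6.06 and 6.06 in WT, where WT library 1 stood apart. Summed over the 3 transporters, the level was 53.4, 58.0 and 42.9 FPKM in knockdown and 74.4, 72.7 and 75.1 in WT, a ratio of means of 0.695. That sum did not overlap between groups, and the exact permutation test gave p = 0.1, the smallest that 3 against 3 libraries can give (two-sided; adjusted p = 0.275 over 11 step sums).

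**Figure D2:**
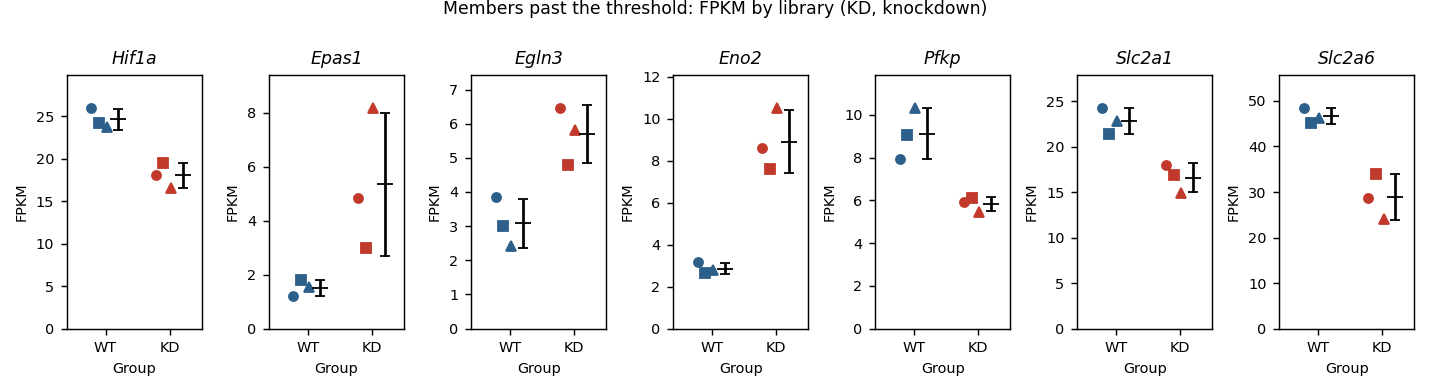
FPKM of the 7 called members in each library, with a panel for each gene, a circle, square and triangle for libraries 1, 2 and 3, and bars for the group mean and SD (n = 3). Knockdown libraries lie above all WT libraries for Eno2, Epas1 and Egln3 and below them for Slc2a1, Slc2a6, Pfkp and Hif1a; the 3 knockdown values of Epas1 are the most scattered, from 2.995 to 8.19.

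Hexokinases, which trap glucose as glucose 6-phosphate, did not pass the test. Hk3, the main hexokinase transcript of these cells, was at 93.1, 107 and 97.2 FPKM in knockdown and at 66.9, 86.7 and 94.7 in WT, values that overlapped (log2 fold change 0.31, SE 0.123, edgeR adjusted p = 0.144). Hk1 (log2 fold change 0.16) and Hk2 (0.17), at 15.5 to 26.1 FPKM, overlapped too. Gpi1, which isomerises glucose 6-phosphate to fructose 6-phosphate, had a log2 fold change of 0.22 (edgeR adjusted p = 0.231).

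Phosphofructokinase, the committed step, has 3 isozymes that combine into tetramers, and of these only Pfkp passed the test. Pfkp (ENSMUSG00000021196, chr13:6579768-6648777), the platelet type, fell: it was at 5.91, 6.11 and 5.46 FPKM in knockdown and at 7.94, 9.08 and 10.3 in WT. The groups lay apart, at 5.83 ± 0.334 and 9.12 ± 1.20 FPKM (SD, n = 3), with a log2 fold change of -0.59 (SE 0.101, edgeR adjusted p = 0.0186). Without any one of the knockdown libraries, or without WT library 2, the adjusted p of Pfkp in edgeR was 0.0515 to 0.0794. Pfkm, the muscle type, was at 8.49, 7.43 and 7.69 FPKM in knockdown and at 6.69, 5.89 and 6.22 in WT. Its groups did not overlap either, with knockdown above, but it missed the threshold (log2 fold change 0.38, SE 0.114, edgeR adjusted p = 0.0778). Pfkl, the liver type and the largest of the 3 at 11.2 to 17.7 FPKM, overlapped (log2 fold change 0.26, SE 0.190). The summed level was nearly equal, 29.1 FPKM in knockdown and 28.7 in WT on average. Pfkp shares 748 bases with Pitrm1 (12.9 and 12.6 FPKM, not called) and Pfkm 1156 bases with Senp1 (2.39 and 3.23 FPKM, not called) on the opposite strand. Whether counting used strand is not given in the sources used here, so reads there cannot be told apart. Pfkfb3 and Pfkfb4, which make and break down the phosphofructokinase activator fructose 2,6-bisphosphate, scattered widely: Pfkfb3 ran from 2.69 to 7.50 FPKM in knockdown and from 2.07 to 6.54 in WT, and Pfkfb4 from 3.37 to 5.36 and from 4.50 to 9.70.

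**Figure D3:**
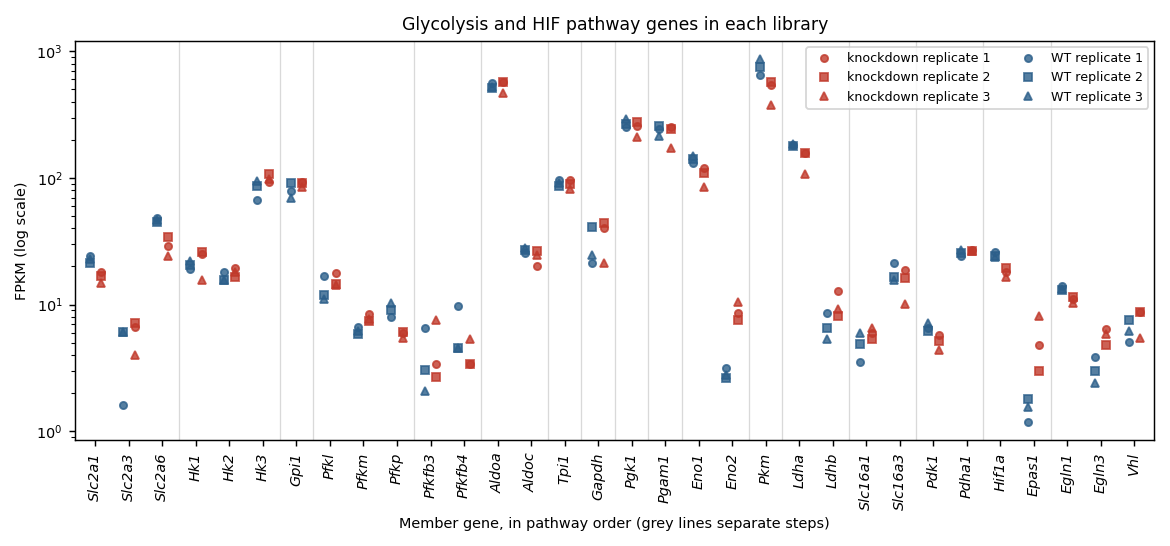
FPKM on a log axis of the 32 members in each of the 6 libraries, ordered by step from glucose transport to the HIF pathway. Levels run from 1.19 FPKM for Epas1 to 871 for Pkm, and for most members the 2 groups' points overlap.

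No gene of the middle of the pathway, from aldolase to phosphoglycerate mutase, was called by edgeR or DESeq2, and none had an unadjusted p under 0.05 in edgeR. Aldoa, the main aldolase, which splits fructose 1,6-bisphosphate, was at 572, 574 and 469 FPKM in knockdown and at 557, 517 and 525 in WT, with a log2 fold change of 0.06 (SE 0.106, edgeR adjusted p = 0.743). Aldoc, the brain-type aldolase, was at 20.2 to 28.1 FPKM over all libraries (log2 fold change -0.14, SE 0.0995). Tpi1, which interconverts the triose phosphates, had a log2 fold change of 0.00 (SE 0.0965), the smallest of all members. Pgk1 (209 to 293 FPKM over all libraries, log2 fold change -0.08) and Pgam1 (172 to 258 FPKM, -0.05), the kinase and the mutase of phosphoglycerate, lay about as close to 0.

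Gapdh, often used as a reference transcript, was listed at 40.1, 43.9 and 21.3 FPKM in knockdown and at 21.2, 41.0 and 24.5 in WT, values far below its neighbours in the pathway and scattered within both groups. For this gene 30 other genes of the table had at least 50% of their 50-base words in common with it, and together these near-identical copies held 924 to 1391 FPKM. The sum of Gapdh and its copies was 1198, 1116 and 945.7 FPKM in knockdown and 1152, 1269 and 1416 in WT (exact permutation p = 0.2). The log2 fold change was 0.33 for the gene alone (SE 0.322, edgeR adjusted p = 0.544) and -0.16 with the copies (edgeR adjusted p = 0.465), so its direction turned and neither value passed. Of the other members, Pgk1 had 3 such copies, Eno1 had 2 and Pgam1 had 1, and the values of all 4 genes are uncertain by how reads were split among copies. Pkm and Ldhb had no such copy, but 25.77% and 20.99% of their own 50-base words also stood in other genes. The same measure was 24.71% for Gapdh and 25.99% for Eno1. The values of Pkm and Ldhb may thus be uncertain in the same way, which was not tested.

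**Figure D4:**
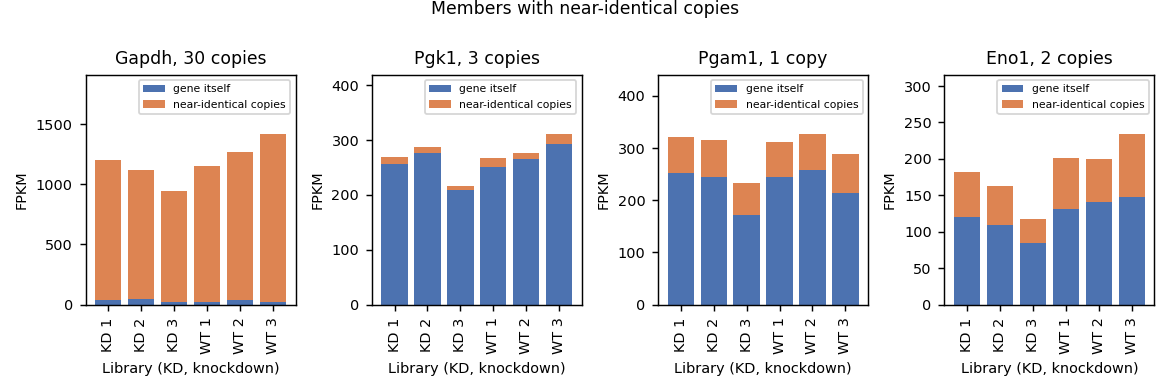
FPKM per library of the 4 members with near-identical copies, for the gene alone and for the gene plus its copies. Gapdh moves from 21.2 to 43.9 FPKM alone to 945.7 to 1416 with its 30 copies, while Pgk1, Pgam1 and Eno1 change less.

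Enolase, which makes phosphoenolpyruvate, held the clearest change of the pathway. Eno2 (ENSMUSG00000004267, chr6:124760053-124769621), the isozyme known from neurons, was at 8.63, 7.58 and 10.5 FPKM in knockdown and at 3.15, 2.63 and 2.80 in WT. The lowest knockdown value was more than double the highest WT value, and the means were 8.91 ± 1.49 and 2.86 ± 0.266 FPKM (SD, n = 3). The log2 fold change was 1.68 (SE 0.163, edgeR adjusted p = 0.00963), a 3.22-fold rise, which missed the threshold only without WT library 2 (edgeR adjusted p = 0.0616). Eno1, the main isozyme, was at 121, 109 and 84.5 FPKM in knockdown and at 131, 141 and 148 in WT. Knockdown was below WT in every library, yet the log2 fold change of -0.37 (SE 0.136) did not pass (edgeR adjusted p = 0.122), nor did that of -0.39 with its 2 copies (edgeR adjusted p = 0.123). Summed over both isozymes, enolase was at 129, 116 and 95.0 FPKM in knockdown and at 134, 144 and 151 in WT, a ratio of means of 0.794 (exact permutation p = 0.1; adjusted p = 0.275), so the total lay lower while the minor isozyme rose.

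Pkm, the pyruvate kinase of these cells, was at 544, 573 and 376 FPKM in knockdown and at 644, 750 and 871 in WT. The groups did not overlap (498 ± 106 and 755 ± 114 FPKM, SD, n = 3), with a log2 fold change of -0.55 (SE 0.179) that missed the threshold in edgeR (adjusted p = 0.0926) and passed it in DESeq2 (adjusted p = 0.0232). The gene model Gm49759, which lies on the same strand within Pkm over 3887 bases, was at 13.8 and 27.4 FPKM on average (log2 fold change -0.94, edgeR adjusted p = 0.0114). Ldha, the main lactate dehydrogenase subunit, was at 156, 158 and 108 FPKM in knockdown and at 182, 178 and 187 in WT, and did not pass (log2 fold change -0.32, SE 0.145, edgeR adjusted p = 0.187). Its values did not overlap, and knockdown library 3 was the lowest of the 6 for both genes. Ldhb, the subunit typical of heart, was at 8.15 to 12.9 FPKM in knockdown and at 5.32 to 8.52 in WT (log2 fold change 0.61, SE 0.252). Of the 10 preparatory enzymes 8 had a positive log2 fold change (median 0.17), among them Tpi1 at 0.00, whose sign varied with the setting. Of the 8 pay-off and lactate dehydrogenase genes 3 did (median -0.06), or 2 (median -0.12) once near-identical copies were added and Gapdh turned.

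The lactate transporters overlapped between groups. Slc16a3, the exporter of glycolytic cells, was at 10.1 to 18.7 FPKM in knockdown and at 15.8 to 21.1 in WT (log2 fold change -0.20, SE 0.236), and Slc16a1, which carries lactate either way, at 5.31 to 6.51 and at 3.53 to 5.98 (log2 fold change 0.37, SE 0.195). At the entry of pyruvate into mitochondria, Pdk1, the kinase that inhibits pyruvate dehydrogenase, was at 5.78, 5.12 and 4.36 FPKM in knockdown and at 6.52, 6.13 and 7.17 in WT. Those groups did not overlap, but the log2 fold change of -0.33 (SE 0.128) did not pass (edgeR adjusted p = 0.141). Pdha1, a catalytic subunit of pyruvate dehydrogenase, stayed within 24.2 to 27.0 FPKM over all 6 libraries (log2 fold change 0.11, SE 0.0713).

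The HIF alpha subunits went in opposite directions. Hif1a (ENSMUSG00000021109, chr12:73901375-73947530), which drives most glycolytic HIF targets, was at 18.1, 19.5 and 16.5 FPKM in knockdown and at 26.0, 24.2 and 23.7 in WT. It fell from 24.6 ± 1.22 to 18.0 ± 1.48 FPKM (SD, n = 3), without overlap, by 0.40 on the log2 scale (SE 0.0846, edgeR adjusted p = 0.0306). Of the 6 fits that left out a library, only the one without WT library 1 kept this call, and the others gave an adjusted p of 0.0644 to 0.101 in edgeR. Epas1 (ENSMUSG00000024140, chr17:86753700-86833410), the alpha subunit of HIF-2, was at 4.83, 2.995 and 8.19 FPKM in knockdown and at 1.19, 1.78 and 1.55 in WT. All knockdown values lay above all WT values but differed among themselves (5.34 ± 2.63 against 1.51 ± 0.299 FPKM, SD, n = 3). The log2 fold change was 1.89 (SE 0.373, edgeR adjusted p = 0.0262), a 3.70-fold rise, and with a library left out it passed only without knockdown library 2 or knockdown library 3 (adjusted p otherwise 0.0581 to 0.0919). Even after that rise Epas1 remained below Hif1a per length in every library, and the sum of both was 22.9, 22.5 and 24.7 FPKM in knockdown and 27.2, 26.0 and 25.3 in WT.

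Of the prolyl hydroxylases among the members, which mark HIF alpha for destruction, Egln3 rose and Egln1 did not pass the test. Egln2, a prolyl hydroxylase outside the members, had higher levels than either. It was at 17.9, 17.75 and 16.95 FPKM in knockdown and at 19.1, 18.9 and 19.1 in WT. Egln2 was not called (log2 fold change -0.07, SE 0.0729, edgeR adjusted p = 0.574). Egln3 (ENSMUSG00000035105, chr12:54178981-54203860) was at 6.47, 4.78 and 5.83 FPKM in knockdown and at 3.84, 3.01 and 2.41 in WT. It rose 1.91-fold without overlap (5.69 ± 0.853 against 3.09 ± 0.720 FPKM, SD, n = 3), with a log2 fold change of 0.93 (SE 0.221, edgeR adjusted p = 0.0424), and with a library left out it passed only without WT library 1 (adjusted p otherwise 0.0547 to 0.147). Egln1, the main oxygen sensor, was at 11.1, 11.4 and 10.3 FPKM in knockdown and at 14.1, 13.0 and 13.4 in WT. Knockdown was lower in all libraries, but the log2 fold change of -0.25 (SE 0.0840) missed the threshold in edgeR (adjusted p = 0.0984). Vhl, the ubiquitin ligase subunit that recognises hydroxylated HIF alpha, overlapped (5.45 to 8.77 FPKM against 5.06 to 7.56, log2 fold change 0.33).

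Isozyme shares, which do not depend on how the libraries were scaled, were taken as percent of the summed FPKM of a step. Of 21 shares in 9 steps, 12 did not overlap between groups, but 8 of them were the mirrored shares of 4 steps with 2 isozymes, counted both ways, and the adjustment over 21 counts them so too. Each of the 12 had an exact permutation p = 0.1, the smallest possible, and an adjusted p = 0.175. Eno2 made up 6.67, 6.52 and 11.1% of enolase in knockdown and 2.34, 1.83 and 1.85% in WT, with knockdown library 3 the highest. Epas1 made up 21.1, 13.3 and 33.1% of the HIF alpha sum against 4.37, 6.87 and 6.13%. The Pfkp share of phosphofructokinase was 18.5, 21.9 and 19.97% in knockdown and 25.2, 33.7 and 37.3% in WT. The Pfkm share moved the other way, 27.1 ± 0.933% against 21.9 ± 0.613% (SD, n = 3), and that of Pfkl overlapped. Among the glucose transporters, Slc2a6 made up 53.8, 58.5 and 55.9% in knockdown and 65.2, 62.2 and 61.6% in WT, while the Slc2a1 share overlapped (32.5% and 30.8% on average). Ldhb made up 6.77% of lactate dehydrogenase against 3.60%, and Pfkfb3 51.0% of its pair against 37.2%, both without overlap. The shares of Hk3 among hexokinases (71.2% and 68.8%), of Aldoa among aldolases (95.7% and 95.2%) and of Slc16a1 among lactate transporters (29.4% and 21.5%) overlapped. Of 11 step sums, 4 did not overlap between groups, all lower in knockdown. They were those of glucose transporters, enolase, lactate dehydrogenase (ratio of means 0.799) and HIF alpha (0.894). These sums are made of members already given above and are not separate results. Among single genes 37.6% of all those tested did not overlap, and no background was computed for sums or shares.

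**Figure D5:**
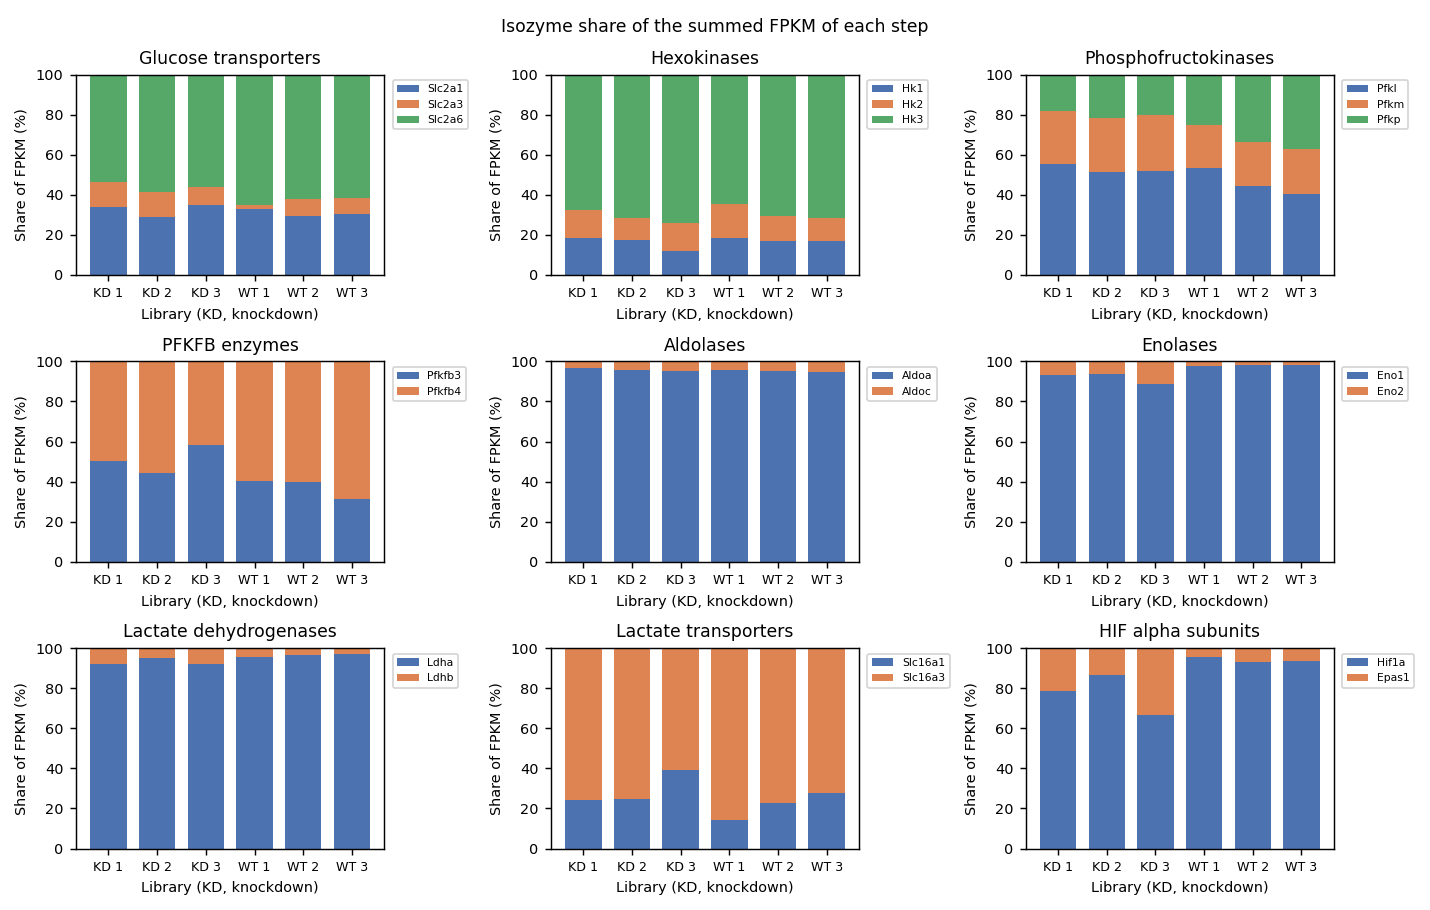
Share of each isozyme, in percent of the summed FPKM of the step's members, in the 6 libraries, with a panel for each of 9 steps. Pyruvate entry (Pdk1 and Pdha1) and the HIF hydroxylases with Vhl have no panel, because their members are not isozymes of a single step. In every knockdown library the Eno2 share (6.52 to 11.1%) and the Epas1 share (13.3 to 33.1%) lie above the WT range, and the Pfkp share (18.5 to 21.9%) lies below it.

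Genes around the pathway were taken from 7 lists, in which 116 of 127 genes were tested, 7 were called higher and 8 lower (12.9%, against 11.3% of all genes). Without WT library 2 all 15 lost the call (edgeR adjusted p of 0.0616 to 0.134), and 2 of them, H6pd and Gaa, kept it in each of the other leave-outs. Among 16 tested of 22 further isozymes and transporters, the fructose transporter Slc2a5 was called higher, at 0.389, 0.649 and 0.735 FPKM against 0.199, 0.231 and 0.255 (log2 fold change 1.40, SE 0.307, edgeR adjusted p = 0.0341), a low level throughout. Of 11 tested HIF regulators, 2 were called lower, the coactivators Ep300 (log2 fold change -0.30, edgeR adjusted p = 0.0315) and Crebbp (-0.40, edgeR adjusted p = 0.0299). Ep300 was at 9.68, 10.5 and 9.37 FPKM against 12.3, 12.9 and 12.4, and Crebbp at 2.94, 3.34 and 2.78 against 3.996, 4.27 and 4.06, neither with overlap.

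HIF target genes outside glycolysis included 4 called higher of 26, with a median log2 fold change of 0.11. Bhlhe40, a transcriptional repressor, was at 42.1, 39.1 and 57.1 FPKM in knockdown and at 20.1, 20.1 and 26.5 in WT, without overlap (log2 fold change 1.11, SE 0.185, edgeR adjusted p = 0.0178). The chemokine receptor Cxcr4 was at 158, 154 and 183 FPKM against 121, 105 and 97.6 (log2 fold change 0.66, SE 0.125, edgeR adjusted p = 0.0237). Tfrc, the transferrin receptor, rose by a log2 fold change of 0.42 (edgeR adjusted p = 0.0278). Bnip3l, a mitophagy receptor named after its value was seen, also rose, with a log2 fold change of 0.70 (edgeR adjusted p = 0.0291).

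In the pentose phosphate pathway, which branches from glucose 6-phosphate, 2 of 11 genes were called and both were lower. H6pd, the glucose 6-phosphate dehydrogenase of the endoplasmic reticulum, was at 16.7, 15.3 and 15.1 FPKM in knockdown and at 27.6, 25.3 and 26.2 in WT, far apart (log2 fold change -0.70, SE 0.0876, edgeR adjusted p = 0.0114). The transketolase Tkt was at 67.3, 78.1 and 57.9 FPKM against 93.3, 94.3 and 99.8 (log2 fold change -0.45, SE 0.105, edgeR adjusted p = 0.0396). Of 33 tested genes of pyruvate use and the TCA cycle, 3 were lower and 0 higher. Idh1, the cytosolic isocitrate dehydrogenase, was at 83.2, 96.2 and 74.6 FPKM against 190, 158 and 129 (log2 fold change -0.86, SE 0.163, edgeR adjusted p = 0.0234). The fumarase gene Fh1 was at 11.7, 11.8 and 10.5 FPKM against 14.4, 15.4 and 16.5 (log2 fold change -0.39, edgeR adjusted p = 0.0321), and the cytosolic malate dehydrogenase Mdh1 had a log2 fold change of -0.36 (edgeR adjusted p = 0.0452).

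Glycogen and gluconeogenesis genes gave 2 calls of 13, both higher. Gaa, the lysosomal enzyme that degrades glycogen, was at 74.0, 61.7 and 73.2 FPKM in knockdown and at 41.2, 35.2 and 35.0 in WT, without overlap (log2 fold change 0.96, SE 0.126, edgeR adjusted p = 0.0120). G6pc3, the ubiquitous glucose 6-phosphatase subunit, was at 17.3, 16.1 and 15.9 FPKM against 12.9, 11.4 and 12.1 (log2 fold change 0.49, edgeR adjusted p = 0.0284). Of 8 genes of the Myc and MondoA axis, transcription factors that also act on glycolytic genes, edgeR called 0, with 5 at an unadjusted p under 0.05, while DESeq2 called 2 higher and 2 lower (17.5% of all genes in DESeq2). The smallest p there was that of Txnip, a glucose-induced inhibitor of glucose uptake, at 116, 102 and 120 FPKM in knockdown and at 189, 146 and 146 in WT (log2 fold change -0.46, edgeR adjusted p = 0.0870).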

How the data were processed

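RNA was sequenced from M-CSF-induced mouse bone marrow macrophages, 3 Lamtor5 knockdown and 3 WT libraries (SMARTER mRNA-Seq kit, per the labels' protocols). The submitters' processing notes name GRCm38 (mm10). Adapters were removed with cutadapt 1.9, per the file headers. How reads were aligned and counted, with which annotation and strand setting, is not stated in the sources used here. Deposited by the authors were estimated counts (whole numbers, 2.95 to 3.01 per read pair kept) and FPKM per gene; an FPKM listed at 0.0001 was read as 0. Whether each library is its own animal or culture is not in the labels, and the p-values therefore measure only library-to-library spread, which may be technical.

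The members and lists were chosen with earlier results of these data known. The estimated counts of all genes were tested in edgeR 4.0.16 under R 4.3.3: filterByExpr (minimum count 10), TMM, quasi-likelihood test with group only, and Benjamini-Hochberg adjustment over 18164 genes at 0.05. A standard error is the log2 fold change over the square root of F. Step sums and shares used FPKM with two-sided exact permutation tests (scipy 1.17.1), adjusted over 11 sums and over 21 shares. Near-identical copies were other genes with at least 50% of their 50-mers in common in GENCODE transcripts. All members were named; list genes were named by up to 4 smallest p among those called, or the 1 smallest p; 1 listed gene that was called lower is counted but not reported here. Alternatives were DESeq2 1.42.0, limma 3.58.1 on log2(FPKM + 1) or log2(FPKM + 0.1), edgeR with RLE size factors, without the count filter or with a replicate block, leaving out each library, and, added after seeing the data, counts divided by 4 and counts summed with copies. Only the edgeR fit was tested on simulated counts.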

Additional observations from a re-analysis of the deposited data

How the results depend on the processing

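The direction of the 7 called members held in all 16 settings; which of them passed varied. With no filter on low counts 2 members were lower, against 4. With limma on log2(FPKM + 1) without a filter 1 member was higher and 0 lower (12 at an unadjusted p under 0.05), and Eno2 was the only member to pass. Leaving out each library in turn gave 0 to 2 members higher and 0 to 3 lower, and 0 to 8 listed genes higher and 0 to 7 lower. Listed genes numbered 7 higher and 8 lower; DESeq2 called 13 and 14, no filter on low counts 5 lower, limma on log2(FPKM + 1) 13 lower, and limma without a filter 2 and 2. Genome-wide, calls ran from 0 without WT library 2 to 3579 with DESeq2, against 2058.

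The labels do not say whether replicate numbers pair the libraries, and the deviations from group means showed no clear pairing. Same-numbered deviations correlated at 0.045, 0.035 and -0.011, within a range of -0.068 to 0.045 over all pairs. Knockdown libraries 1 and 2 correlated best with the WT library of the same number, and knockdown library 3 with WT library 2, at 0.034. Values this small, from 3 libraries per group, cannot exclude pairing. With the replicate block 728 genes passed, with 1 member higher and 0 lower (14 at an unadjusted p under 0.05), and 3 listed genes higher and 2 lower.

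With TMM-scaled counts in place of FPKM, which do not correct for length, the phosphofructokinase sum had a log2 ratio of -0.11, and the share differences of knockdown minus WT were 9.41 points for Slc2a3, -9.21 for Slc2a6, 3.67 for Pfkm, -1.59 for Ldha and 1.59 for Ldhb. Dividing counts by 4 and adding copies, both added after seeing the data, left the called members as they were. With 3 libraries per group exact tests cannot go below 0.1, and the estimated counts carry no binomial interval.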
